A study of Mus musculus with 6 samples.

Results

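Solute carriers are membrane proteins that move amino acids, sugars, ions, metals, vitamins and metabolites across the plasma membrane and the membranes of organelles, by facilitated diffusion or by coupling one solute to the gradient of another. The genes described here are those whose symbol has the form of a solute carrier (Slc, a family number, the letter a and a member number), without the mitochondrial Slc25 family and without 9 named genes that belong to lactate and glucose supply, pigment, cystine and iron handling. Of 12556 genes in the deposited table, 203 have such a symbol, 38 of these are Slc25 genes and 8 of the 9 named genes are present, which left 157 members (1.25% of the table) in 41 families. Of the 157, 5 are not carriers but were named after one: Slc9a3r1 and Slc9a3r2, the scaffolds that bind the exchanger Slc9a3, Slc4a1ap, Slc7a6os and Slc2a4rg-ps. Without them, 152 genes remain, among them Slc22a13b-ps, which the annotation gives as a transcribed pseudogene and which is counted here with its family.

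The measurements come from primary cultures of retinal pigment epithelium (RPE) of C57BL/6J mice aged 10 to 12 days, kept in culture for 5 to 6 days on permeable 0.4 µm supports, with the cells of about 1 eye in each well. POS-challenged cultures received about 10 mouse photoreceptor outer segments (POS) for each cell over 1.5 h before washing, and unchallenged cultures, titled as vehicle, received none. Each group has 3 libraries of poly(A) RNA, strain and culture are shared by all 6, and the comparison asks what a meal of outer segments does to the RNA of the RPE. The labels call the libraries biological replicates without saying whether they came from separate litters or days. The p-values set the difference of the groups against the spread between these libraries, whatever its source.

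The RPE stands between the choroidal blood and the photoreceptors, and it feeds the outer retina, removes its lactate and water, and buffers the ions and pH of the space around the outer segments. Carriers on its apical and basal membranes, driven mostly by the sodium gradient that the Na,K-ATPase sets up, carry out this exchange. The RPE also digests shed outer segments daily in phagosomes that fuse with lysosomes, whose own carriers export amino acids, peptides, sugars, sialic acid, heme and metals.

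Counted from the steps between the values of a library, the table sums to between 24869273 and 30420028 reads per library, of which the members took 279792 to 364322 reads, or 1.094% to 1.198% of the scaled counts. Libraries of 1 group differed from each other in ways that the groups do not account for. The mean log2 level of 22 measured interferon-stimulated genes was 10.95, 6.38 and 11.4 in unchallenged replicates 1, 2 and 3 and 5.88, 6.87 and 8.99 in POS-challenged replicates 1, 2 and 3, so unchallenged replicates 1 and 3 stand apart. POS-challenged replicate 3 was the lowest of the 6 libraries for 59 of the 157 members (37.6%), against 28.8% of all genes, and the highest for 32 (20.4%), against 31.0% of all genes. The RPE label was checked on 12 markers: all but Best1, 11, were measured, with a mean log2 level of 10.16 to 10.68 in unchallenged and 10.32 to 10.95 in POS-challenged libraries. That mean hides a wide spread, from 21709 normalized counts for Tyr to 136 for Rpe65 and 54.4 for Lrat (means of the unchallenged libraries). Of 12 photoreceptor markers, Sag and Cdhr1 were measured, both higher after the challenge (adjusted p = 0.00109 and 0.0417 in limma), with a mean log2 level of 5.53 to 5.67 without and 8.81 to 9.53 with outer segments. Of 8 macrophage markers, 5 were measured at a mean log2 level of 6.25 to 6.91 and 6.11 to 6.85, all 6 fibroblast markers at 10.96 to 11.42 and 10.98 to 11.41, and none of 5 erythrocyte markers was among the genes analysed. The fibroblast markers Pdgfra and Pdgfrb were called higher in the authors' deposited table (adjusted p = 0.00334 and 0.0176) and 0 were called lower. In limma their adjusted p was 0.252 and 0.24. The log2 fold changes of Pdgfra, Pdgfrb, Col1a2 and Lum were 0.95, 0.35, 0.05 and 0.01 there. Those of Dcn and Col1a1 were -0.98 and -0.19, and the median of the 6 was 0.03. The 4 measured markers each of Muller glia and of melanocytes lay at 9.95 to 10.51 and 8.37 to 8.77 without and at 10.36 to 10.93 and 8.32 to 8.94 with outer segments, and 3 of endothelium at 6.21 to 6.58 and 6.36 to 6.49. In bulk RNA, fewer cells of a type and less RNA per cell cannot be told apart.

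No solute carrier member differed between the groups at an adjusted p under 0.05 in limma, the test on log2(value + 1) over all 12556 genes, where value is the read count divided by the size factor of its library. The lowest adjusted p of a member was 0.24. In all that follows, the values of a gene are normalized counts, given first for unchallenged replicates 1 to 3 and then for challenged replicates 1 to 3. The background was low too: limma called 8 of all genes higher (0.0637%) and 4 lower (0.0319%). At an unadjusted p under 0.05, 7 members were higher (4.46%), against 4.87% of all genes, and 8 were lower (5.1%), against 6.58%. In the authors' deposited table, 150 members have an adjusted p, and 1 of these is called higher (0.667%, background 0.871%) and 4 lower (2.67%, background 1.68%). The 3 values of one group all lay above those of the other for 12 members that were higher after the challenge (7.64%, background 9.56%) and for 16 that were lower (10.2%, background 10.4%). The genes called in the authors' deposited table were Slc29a1, higher, with a log2 fold change there of 0.35, and Slc39a4, Slc2a6, Slc8a2 and Slc16a10, lower, with log2 fold changes there of -0.77, -0.73, -0.68 and -0.52. These are smaller in size than the limma values given for these genes, and each adjusted p from that table belongs to the fold change in it. With 3 libraries against 3, the smallest two-sided p that an exact permutation test can give for a gene is 0.1.

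Most carriers, like most genes, lay close to equal levels in the groups. The median log2 fold change of the 157 members was 0.02 (0.01 over all genes), with quartiles of -0.14 and 0.13. The fold change was above 0 for 85 members and below 0 for 72 (45.9%, against 48.3% of all genes). For 143 members it lay within 0.5 of 0 on the log2 scale, as it did for 11630 of all 12556 genes. Quantile normalization brought these medians to 0.053 and 0.03 and the members above 0 to 90; it left the sign counts of the Slc1, Slc9, Slc15, Slc22 and Slc29 families given here as they were. The fold change passed 1 in size for 5 members, all of them lower after the challenge: Slc15a3, Slc2a6, Slc39a4, Slc7a2 and Slc8a2. Without unchallenged replicates 1 and 3, the 5 differed by -0.745, -0.61, -0.645, 0.12 and -1.43 in that order, and Slc38a4 by 1.29. The same count over all genes was not made, so it is not read as a trait of the carriers.

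**Figure D1:**
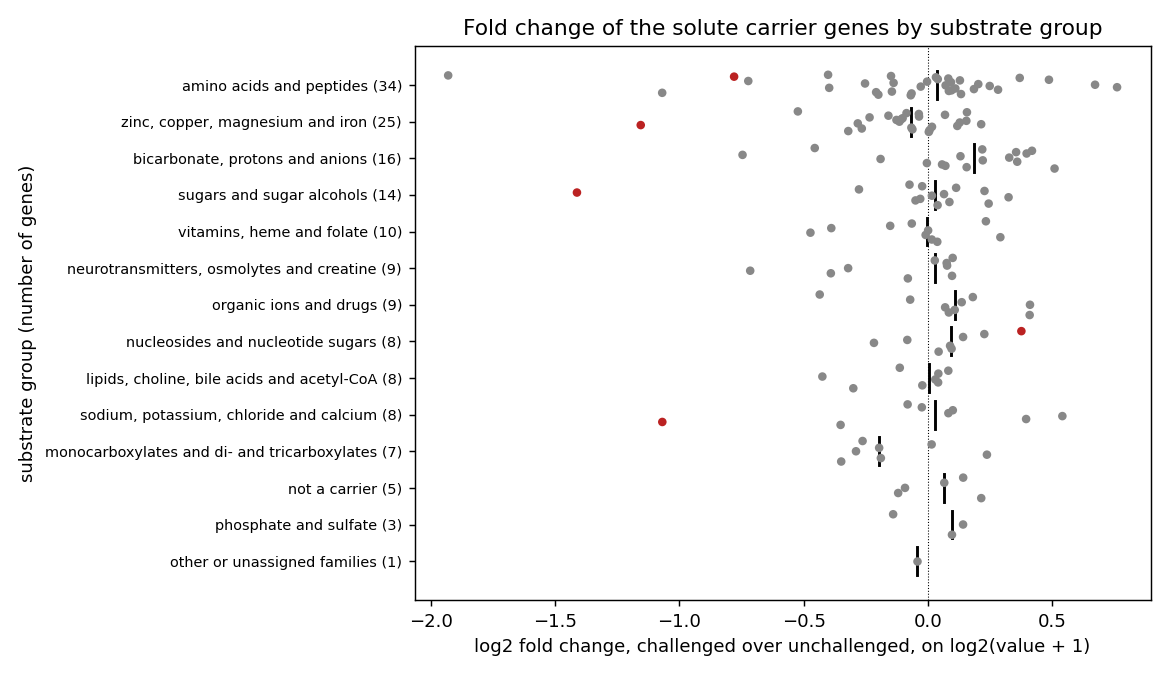
Log2 fold change (challenged over unchallenged, on log2(value + 1), horizontal axis) of each of the 157 members, by substrate group (vertical axis, with the number of genes). Each point is a gene, the black bar is the median of a group, and red points are the 5 genes with an adjusted p under 0.05 in the authors' deposited table; most points lie within 0.5 of 0 and the medians lie between -0.195 and 0.188.

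Amino acid and peptide carriers were the largest group, with 34 members that held 37.0% to 37.7% of the members' counts in the unchallenged libraries and 35.2% to 38.4% in the challenged ones. Their median log2 fold change was 0.04, with 18 above 0 and 16 below, and 2 higher and 4 lower at an unadjusted p under 0.05 (4.87% and 6.58% of all genes). The most abundant of the 157 members was Slc7a8, the light chain of an exchanger of neutral amino acids, with 35958, 38301 and 36824 normalized counts in unchallenged replicates 1 to 3 and 36962, 41895 and 28417 in challenged replicates 1 to 3. The groups overlapped, and the lowest of the 6 was challenged replicate 3. Its heavy chain partner Slc3a2, the glycoprotein that brings the light chains to the surface, had 24465, 26333 and 26864 counts without and 24705, 27740 and 23824 with outer segments, also with overlap. Slc7a5, another light chain of Slc3a2, had 2304, 1677 and 2170 counts without and 1888, 1920 and 3058 with outer segments, with its highest value in challenged replicate 3.

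Slc38a2, a sodium-coupled carrier of small neutral amino acids that many cells induce when amino acids run short, had 19819, 23117 and 22304 counts in unchallenged libraries and 17341, 19390 and 17981 in challenged ones. All 3 challenged values lay below all 3 unchallenged ones, by -0.25 ± 0.09 on the log2 scale (SE, n = 3 per group), with an unadjusted p of 0.0266 and an adjusted p of 0.385 in limma. Quantile normalization brought the difference to -0.11, with an unadjusted p of 0.271 in limma. Its relative Slc38a1 had 6293, 6102 and 6456 counts without and 6706, 6634 and 6775 with outer segments, apart in the other direction by 0.09 ± 0.06 (adjusted p = 0.56 in limma), or by 0.165 after quantile normalization. Slc38a4, a further carrier of that family, had 420, 201 and 349 counts without and 545, 443 and 499 with outer segments, a difference of 0.67 ± 0.26 (adjusted p = 0.404 in limma). Leaving out unchallenged replicate 2, its low library, brought that difference to 0.365, and leaving out unchallenged replicates 1 and 3 brought it to 1.29.

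Slc16a10, which carries aromatic amino acids without a coupled ion, was called lower by the authors' deposited table at an adjusted p of 0.0485. Its gene (Entrez 72472) lies on the minus strand at chr10:40033532-40142270 of GRCm38.p6. It had 154, 124 and 122 counts in unchallenged and 86.2, 89.8 and 58.5 in challenged libraries, with no overlap. The difference was -0.78 ± 0.21 on the log2 scale (adjusted p = 0.283 in limma). Without unchallenged replicates 1 and 3 the difference was -0.68.

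The widest ranges within the unchallenged group were those of Slc7a2 and Slc15a3. Slc15a3, a lysosomal carrier of histidine and small peptides best known from immune cells, had 754, 169 and 452 counts in unchallenged and 95.2, 147 and 72.6 in challenged libraries. The groups did not overlap, with unchallenged replicate 2 the nearest to the challenged libraries, and the difference was -1.93 ± 0.53 on the log2 scale (adjusted p = 0.284 in limma). The authors' deposited table gives a log2 fold change of -0.44 with an adjusted p of 0.0784. The plasma membrane arginine and lysine carrier Slc7a2 had 1079, 213 and 497 counts without and 220, 192 and 291 with outer segments. Its groups overlapped, and the difference of -1.07 ± 0.53 (adjusted p = 0.489 in limma) was -0.49 without unchallenged replicate 1, -1.66 without unchallenged replicate 2 and 0.12 without replicates 1 and 3. Slc36a2, a proton-coupled carrier of glycine and proline, had 102, 52.2 and 58.8 counts without and 32.7, 49.97 and 41.3 with outer segments, or -0.72 ± 0.29 (adjusted p = 0.416 in limma).

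In all 3 of these genes the highest value was that of unchallenged replicate 1 and the next that of unchallenged replicate 3, the other library with high interferon genes. The mean log2 level of the interferon genes had the reverse order there, 10.95 in replicate 1 and 11.4 in replicate 3. Challenged replicate 3, at 8.99 the highest challenged library for them, held the lowest value of Slc15a3 and the highest challenged value of Slc7a2. With both left out, which leaves 1 unchallenged library, Slc15a3 differed by -0.745 and Slc36a2 by -0.35 (-0.435 without replicate 1 alone). Leaving out unchallenged replicate 2 instead gave Slc15a3 a difference of -2.52 with an adjusted p of 0.0305 in limma. As replicate 2 was its lowest unchallenged library, leaving it out had to enlarge the difference. That fit called 108 of all genes lower, against 4 with all 6 libraries. The part of the interferon difference in these values was not tested.

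Among glutamate and neutral amino acid exchangers of the Slc1 family, all 5 members had a fold change above 0, between 0.03 and 0.49. Slc1a6, a glutamate transporter, had 135, 173 and 146 counts without and 237, 167 and 241 with outer segments, an overlap of 1 library, and a difference of 0.49 ± 0.18 (adjusted p = 0.389 in limma) that was 0.29 without unchallenged replicates 1 and 3. Slc1a3, the glutamate transporter of retinal glia, had 113, 182 and 164 counts without and 210, 236 and 147 with outer segments. All 3 members of the peptide carrier family Slc15 had a fold change below 0, from -1.93 to -0.15, and so did 6 of 7 members of Slc7 (5 of 7 after quantile normalization, with 2 above 0). The lysosomal amino acid carrier Slc36a1 had 738, 678 and 748 counts without and 718, 747 and 914 with outer segments, and the lysosomal histidine and peptide carrier Slc15a4 had 1357, 1440 and 1374 without and 1140, 1254 and 1382 with them; both groups overlapped.

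Sugar carriers numbered 14, with a median log2 fold change of 0.03 and 8 above 0. Slc2a6, a glucose transporter family member located on lysosomes, was called lower by the authors' deposited table at an adjusted p of 0.00363. Its gene (Entrez 227659) lies on the minus strand at chr2:27021363-27028000. It had 252, 94.8 and 193 counts in unchallenged and 54.4, 78.7 and 55.4 in challenged libraries, with no overlap, and the difference was -1.41 ± 0.36 on the log2 scale (adjusted p = 0.264 in limma). As in Slc15a3, unchallenged replicates 1 and 3 were the high libraries and replicate 2 lay next to the challenged ones. Without replicates 1 and 3 the difference was -0.61, and without replicate 2 it was -1.82 with an adjusted p of 0.0264 in limma. Here too, leaving out the lowest unchallenged library had to enlarge the difference, in the fit that called 108 of all genes lower.

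The other sugar carriers were nearer to equal. Slc2a3, a glucose transporter with high affinity, had 529, 406 and 371 counts without and 360, 362 and 343 with outer segments, a difference of -0.28 ± 0.14 (adjusted p = 0.495 in limma) that was -0.13 without unchallenged replicate 1. Slc45a4 had 744, 946 and 930 counts without and 1123, 1000 and 971 with outer segments, apart by 0.25 ± 0.11 (adjusted p = 0.466 in limma), or by 0.13 without unchallenged replicate 1. Slc37a3 was the most abundant of the group at 1723, 1738 and 1713 against 1744, 1741 and 1586.

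Zinc, copper, magnesium and iron carriers numbered 25 and held 17.4% to 18.9% of the members' counts in the unchallenged libraries. Their median log2 fold change was -0.07, with 16 of 25 below 0, and 9 of the 14 Slc39 importers had a fold change below 0 (8 after quantile normalization). Slc39a4, the plasma membrane zinc importer whose loss causes the zinc deficiency acrodermatitis enteropathica in humans, had the lowest adjusted p of all members in the authors' deposited table (0.000782). Its gene (Entrez 72027) lies on the minus strand at chr15:76612383-76618506. It had 1599, 725 and 953 counts in unchallenged and 474, 518 and 405 in challenged libraries, without overlap, and the difference was -1.16 ± 0.27 on the log2 scale (adjusted p = 0.242 in limma). Unchallenged replicate 1 was far above the others, and without it the difference was -0.84; without replicates 1 and 3 it was -0.645.

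Slc39a3, another importer of zinc, was higher in all 3 challenged libraries, at 609, 594 and 627 counts against 717, 689 and 720, by 0.22 ± 0.07 (adjusted p = 0.359 in limma). Slc30a1, the exporter that lowers cytosolic zinc at the plasma membrane, overlapped at 1023, 841 and 748 against 882, 897 and 1131. Slc39a7, which releases zinc from the endoplasmic reticulum, was the most abundant of the group at 8384, 7863 and 8426 counts against 7950, 8047 and 7573, but 84.5% of its exon bases also belong to another annotated gene. Slc39a12, present in the RPE, had its low values in unchallenged replicate 1 and challenged replicate 3, at 659, 987 and 1007 against 1179, 1036 and 742. The metallothioneins Mt1 and Mt2, zinc-binding proteins that cells raise when zinc is plentiful, had a fold change of -0.08 and -0.03, within the spread between libraries.

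Sodium, potassium, chloride and calcium carriers numbered 8, with 4 above and 4 below 0. Slc8a2, a sodium-calcium exchanger that extrudes calcium, was called lower by the authors' deposited table at an adjusted p of 0.00644. Its gene (Entrez 110891) lies on the plus strand at chr7:16127592-16161063. It had 179, 265 and 183 counts in unchallenged and 88.0, 132 and 79.6 in challenged libraries, without overlap, and the difference was -1.07 ± 0.24 on the log2 scale (adjusted p = 0.24 in limma). Here the highest library was unchallenged replicate 2, and without replicates 1 and 3 the difference was -1.43. Its relatives Slc8a1 and Slc8a3 had differences of 0.40 and -0.35 with overlapping groups. Slc24a3, an exchanger of sodium for calcium and potassium, was higher in all 3 challenged libraries, at 151, 169 and 197 counts against 228, 217 and 317, by 0.54 ± 0.18 (adjusted p = 0.359 in limma).

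The chloride importer Slc12a2, which serves the chloride transport that drives fluid across the RPE, had 3688, 4296 and 4331 counts without and 4474, 4318 and 3002 with outer segments. Slc12a4, a potassium-chloride cotransporter, was the most abundant of this group at 7003, 6692 and 6896 against 6901, 7080 and 6298. Both pairs of groups overlapped, and both had their lowest value in challenged replicate 3.

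Nucleoside and nucleotide sugar carriers numbered 8. Slc29a1, the equilibrative carrier through which cells take up and release adenosine, was the 1 member called higher by the authors' deposited table, at an adjusted p of 0.0276. Its gene (Entrez 63959) lies on the minus strand at chr17:45585200-45599618, and 10.35% of its exon bases also belong to a gene on the opposite strand. It had 528, 538 and 524 counts in unchallenged and 746, 670 and 652 in challenged libraries, and the difference was 0.38 ± 0.08 on the log2 scale (adjusted p = 0.24 in limma). The unchallenged values lay close together and the groups did not overlap, and without unchallenged replicates 1 and 3 the difference was 0.36. All 3 members of the Slc29 family had a fold change above 0. Slc29a3, a lysosomal nucleoside carrier, had 377, 335 and 349 counts against 380, 370 and 506, and Slc29a4 had 391, 423 and 381 against 433, 468 and 418, which overlapped by 1 library. The nucleotide sugar carriers of the Golgi Slc35a1 and Slc35a2 were lower and Slc35a3 and Slc35a4 higher without overlap, but none by more than 0.22 on the log2 scale.

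**Figure D2:**
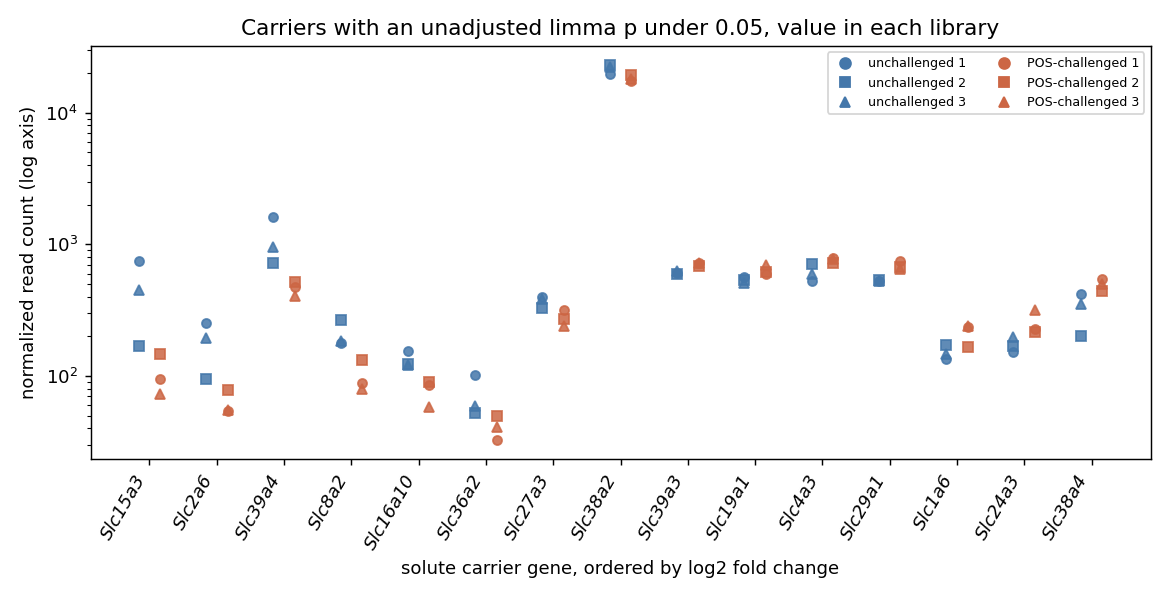
Normalized read count (log axis) in each of the 6 libraries for the 15 members with an unadjusted p under 0.05 in limma, ordered by log2 fold change from Slc15a3 to Slc38a4. Blue symbols are unchallenged and orange ones POS-challenged libraries, and the symbol shape gives the replicate; in Slc15a3, Slc2a6 and Slc39a4 unchallenged replicates 1 and 3 lie above replicate 2.

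Promoter sequences are shown for Slc2a6, Slc8a2, Slc16a10 and Slc29a1, the 4 of 5 genes called in the authors' deposited table that have an entry. They hold the 250 bases before the RefSeq transcription start on GRCm38.p6, 5′ to 3′ on the strand of the gene, with capitals where a motif of an inflammatory, stress or metal-responsive factor matches. Motifs searched on both strands were NF-kB (GGG, any 5 bases, CC), AP-1 (TGANTCA), the interferon response element (GAAA, any 2 bases, GAAA) and the metal response element (TGCNCNC), all chosen after the values were seen. In 27025 promoter windows of the same length, 45.4%, 6.9%, 3.0% and 43.8% hold a match. The windows are chr2:27027999-27028248 (minus strand) for Slc2a6, chr7:16129576-16129825 (plus strand) for Slc8a2, chr10:40142255-40142504 (minus strand) for Slc16a10 and chr17:45599619-45599868 (minus strand) for Slc29a1, the first of its 8 starts. The window of Slc8a2 lies inside the interval given above for its gene, chr7:16127592-16161063. It precedes the 1 listed transcript start and not the first base of the gene. Those of Slc2a6 and Slc16a10 overlap the end of their gene interval by a few bases.
Slc2a6: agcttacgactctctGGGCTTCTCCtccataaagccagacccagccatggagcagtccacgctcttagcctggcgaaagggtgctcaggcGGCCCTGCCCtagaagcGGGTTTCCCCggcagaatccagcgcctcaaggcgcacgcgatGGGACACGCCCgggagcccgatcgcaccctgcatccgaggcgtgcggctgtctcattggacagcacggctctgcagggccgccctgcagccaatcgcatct
Slc8a2: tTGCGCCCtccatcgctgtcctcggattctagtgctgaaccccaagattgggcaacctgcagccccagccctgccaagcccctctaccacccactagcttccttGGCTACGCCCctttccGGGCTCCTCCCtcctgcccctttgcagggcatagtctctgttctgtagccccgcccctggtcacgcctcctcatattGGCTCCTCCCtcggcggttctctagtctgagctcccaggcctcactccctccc
Slc16a10: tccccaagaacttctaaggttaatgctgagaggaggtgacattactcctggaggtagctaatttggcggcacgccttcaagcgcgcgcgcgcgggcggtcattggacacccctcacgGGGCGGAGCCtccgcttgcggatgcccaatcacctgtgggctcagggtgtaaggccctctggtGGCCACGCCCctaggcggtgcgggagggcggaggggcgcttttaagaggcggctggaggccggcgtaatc
Slc29a1: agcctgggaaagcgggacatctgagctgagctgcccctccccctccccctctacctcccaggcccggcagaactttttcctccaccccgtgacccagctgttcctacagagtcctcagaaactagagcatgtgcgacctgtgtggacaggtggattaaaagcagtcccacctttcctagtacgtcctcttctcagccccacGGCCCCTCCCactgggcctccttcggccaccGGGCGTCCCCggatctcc
The capitals in Slc2a6 are 5 matches to the NF-kB letters, in Slc8a2 4 such matches and 1 to the metal response element at the first bases, and in Slc16a10 and Slc29a1 2 NF-kB matches each; matches that overlap were counted apart. None of the 4 windows held the AP-1 or interferon letters. These letters are short and rich in G and C, and a match is no site. Slc39a4 and Slc15a3 are named without a sequence.

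Carriers of bicarbonate, protons and anions numbered 16, and 12 of them had a fold change above 0, with a median of 0.19 on the log2 scale. Only Slc4a3, a chloride-bicarbonate exchanger, had an unadjusted p under 0.05, at 527, 706 and 594 counts against 783, 716 and 780, a difference of 0.33 ± 0.12 (adjusted p = 0.385 in limma) that was 0.10 without unchallenged replicates 1 and 3. The basolateral exchanger Slc4a2 had 6467, 8754 and 7933 counts without and 9220, 8821 and 7266 with outer segments, and the sodium bicarbonate cotransporter Slc4a4 had 4191, 3874 and 3886 against 3554, 3895 and 3072. Several members of this group were low in unchallenged replicate 1 and high in challenged replicate 1. Slc26a7, an anion exchanger, had 870, 1823 and 2150 counts against 2713, 2092 and 1440, and Slc4a5, a sodium bicarbonate cotransporter, had 1894, 3508 and 3067 against 3893, 3674 and 2260. Over the same libraries the mean log2 level of the RPE markers was 10.16, 10.6 and 10.68 without and 10.95, 10.66 and 10.32 with outer segments, also lowest in unchallenged replicate 1, and the part of this in the carriers' values was not tested.

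Slc4a11, known from the basolateral membrane of corneal endothelium, was low in 1 challenged library. It had 797, 853 and 878 counts without and 745, 737 and 230 with outer segments, and the difference of -0.75 ± 0.42 (adjusted p = 0.532 in limma) was -0.18 without challenged replicate 3. All 4 members of the Slc9 family had a fold change above 0, from 0.06 to 0.51.

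Vitamin carriers numbered 10, with a median log2 fold change of -0.003. Slc19a1, the reduced folate carrier, was higher in all 3 challenged libraries, at 569, 541 and 513 counts against 600, 612 and 699, by 0.23 ± 0.09 (adjusted p = 0.411 in limma). The proton-coupled folate carrier Slc46a1 overlapped at 402, 373 and 462 against 375, 392 and 462, and the thiamine carrier Slc19a2 and the ascorbate carrier Slc23a2 were the most abundant at 1675, 1819 and 1819 against 1668, 1653 and 1760 and at 1543, 1372 and 1431 against 1495, 1419 and 1434. Slc48a1, which moves heme out of endosomes and lysosomes, is not among these 10 and was kept alone as a group of other families. It had 12433, 13509 and 13668 counts against 13426, 13500 and 11610. The groups of Slc46a1, Slc19a2, Slc23a2 and Slc48a1 overlapped.

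Among carriers of lipids, choline and acetyl-CoA, 8 in number, Slc27a3 was lower in all 3 challenged libraries. This acyl-CoA synthetase of the fatty acid transport family had 398, 326 and 384 counts without and 318, 269 and 240 with outer segments, a difference of -0.42 ± 0.14 (adjusted p = 0.356 in limma) that was -0.25 without unchallenged replicates 1 and 3. Slc44a2, a choline transporter-like protein, was the most abundant at 5727, 6154 and 5680 against 5903, 6310 and 5137. Slc27a1, a fatty acid carrier, followed at 2035, 2112 and 2281 against 2329, 2413 and 1907.

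Carriers of neurotransmitters, osmolytes and creatine numbered 9, none with an unadjusted p under 0.05. Slc5a3, which takes up myo-inositol, had 10099, 14271 and 12544 counts without and 12867, 11961 and 6033 with outer segments, and Slc6a8, which takes up creatine, had 7471, 7512 and 7311 against 7069, 7341 and 6696. Sialin, the lysosomal sialic acid exporter encoded by Slc17a5, had 709, 706 and 712 counts against 746, 702 and 839. The 7 carriers of monocarboxylates and larger carboxylates had a median log2 fold change of -0.195, with 5 of 7 below 0.

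Of the 9 members of the organic ion carrier family Slc22, 7 had a fold change above 0; 1 of the others is the pseudogene Slc22a13b-ps, at -0.43. Slc22a17, a receptor for the iron-binding lipocalin, was the most abundant at 1937, 2405 and 2372 counts against 2520, 2628 and 1441. Slc22a21, a carnitine carrier of mice, was higher without overlap, at 48.8, 46.9 and 56.6 counts against 64.4, 57.4 and 83.7, a difference of 0.41 ± 0.20 (adjusted p = 0.473 in limma) that was 0.26 without challenged replicate 3. Slc22a8, an organic anion carrier, spread over 1.84 on the log2 scale within the unchallenged libraries, at 15.9, 59.6 and 46.6 counts. The phosphate carriers Slc20a1 and Slc20a2 differed in direction: Slc20a1 had 8058, 7429 and 7635 counts against 6745, 7011 and 7235, with no overlap and a difference of -0.14 ± 0.07 (adjusted p = 0.473 in limma; -0.05 after quantile normalization and -0.09 without unchallenged replicates 1 and 3), and Slc20a2 had 14326, 18998 and 17526 against 21073, 20968 and 14518, with overlap.

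Levels were compared between genes per kilobase of annotated exon, since a long transcript collects more reads. Slc7a8 had the highest, with 9067 ± 290 normalized counts per kb (SD, n = 3 unchallenged libraries), followed by its partner Slc3a2 at 8566 ± 417. The highest value of Slc3a2 (8890) lay above the lowest of Slc7a8 (8804.5), so the order of these neighbours does not exceed their spread. Next were Slc48a1 at 5207 ± 265, Slc20a2 at 4753 ± 670 and Slc38a2 at 4667 ± 369, whose ranges overlapped. Slc39a7 came at 3482 ± 133, Slc39a13 and Slc39a1, importers of the same zinc family, at 2599 ± 96.3 and 2578 ± 90.8 and Slc20a1 at 2231 ± 92.8. Slc7a8 and Slc3a2 together took 19.4% of the members' counts in the unchallenged libraries and the 10 most abundant members 49.0%. The mean unchallenged count of a member ranged from 17.3 to 37028 with a median of 515.8. By the mean of all 6 libraries, 35 members lay under 100 and 18 over 5000.

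**Figure D3:**
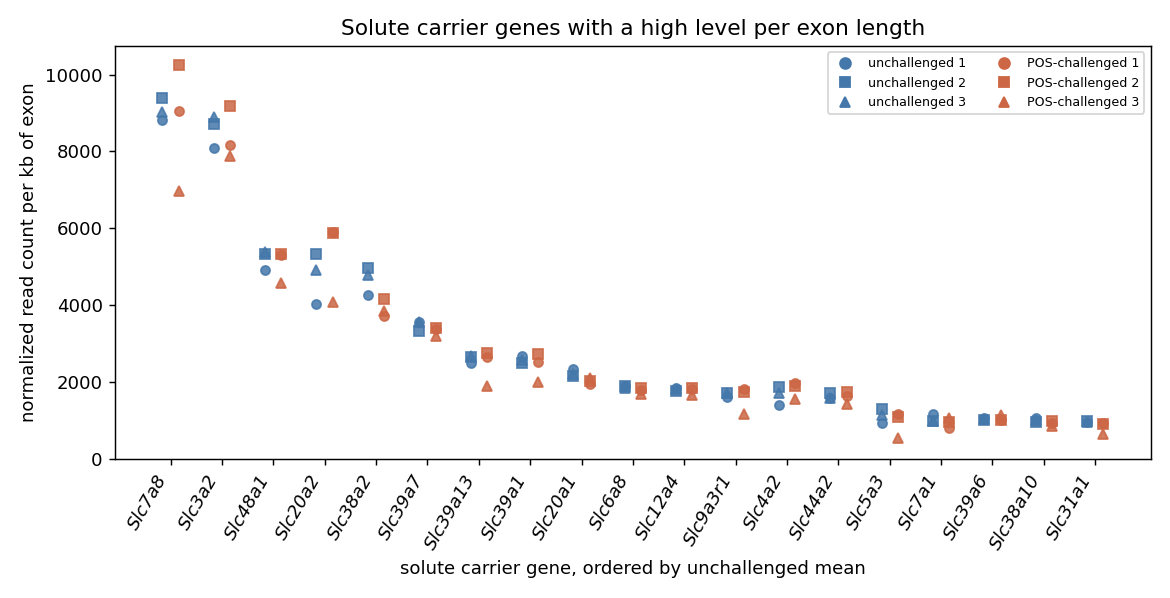
Normalized read count per kb of annotated exon (linear axis from 0) for 19 members with a high unchallenged mean, in each of the 6 libraries. Blue symbols are unchallenged and orange ones POS-challenged, with the shape giving the replicate; Slc7a8 and Slc3a2 lie above 6000 in every library.

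Some carriers varied widely between libraries of 1 group. The log2 range within the unchallenged group was 2.34 for Slc7a2 and 2.15 for Slc15a3, and within the challenged group it was 1.76 for Slc26a8, an anion carrier at 17.2, 13.0 and 46.4 counts. The range passed 1 for 11 members in each group. Slc38a7, a glutamine carrier, was high in challenged replicate 3 alone, at 985, 917 and 903 counts against 902, 833 and 1826, whereas Slc31a1, the copper importer, was low there at 4110, 4170 and 4055 against 3964, 3931 and 2741.

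**Figure D4:**
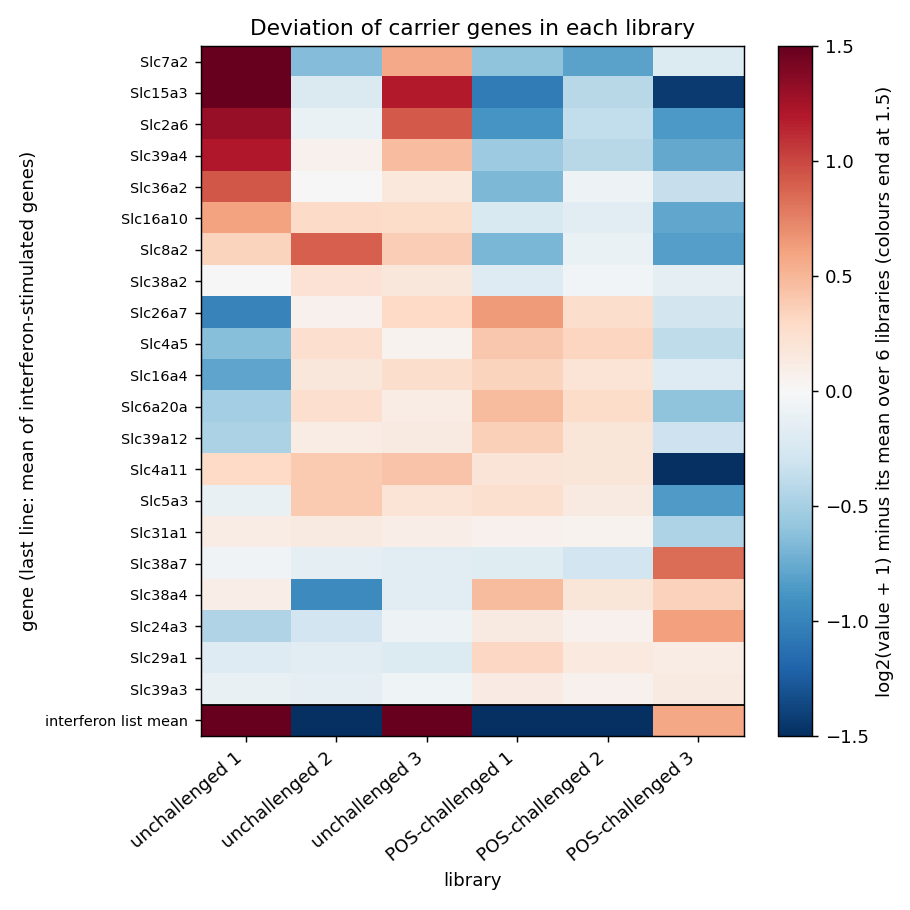
Deviation of log2(value + 1) from its mean over the 6 libraries (colour, which ends at 1.5) for 21 members (rows) in each library (columns), with the mean of 22 interferon-stimulated genes in the last line. Slc7a2, Slc15a3, Slc2a6 and Slc39a4 were highest in unchallenged replicate 1, and Slc4a11 lowest in challenged replicate 3.

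The pumps, channels and other transporters that work beside these carriers gave no call in limma either, and 3 in the authors' deposited table. Over all genes, that table calls 0.871% higher and 1.68% lower. Of the Na,K-ATPase list 6 genes were measured, with a median of -0.055 on the log2 scale and none at an unadjusted p under 0.05. Among 7 measured carbonic anhydrases, which supply bicarbonate, Car9 was called lower (adjusted p = 0.0276 in the authors' deposited table) at 1236, 1017 and 1021 counts against 750, 876 and 662, a difference of -0.52 ± 0.13 (adjusted p = 0.253 in limma). Of the 3 measured aquaporins, the water channel Aqp5 was called higher (adjusted p = 0.0384 in the authors' deposited table) at 243, 350 and 434 counts against 578, 699 and 477, and Aqp1 overlapped. Of the 23 measured ABC transporters, the drug exporter Abcb1b was called lower (adjusted p = 0.0326 in the authors' deposited table) at 1546, 859 and 958 counts against 634, 758 and 559, with its highest value again in unchallenged replicate 1.

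The 17 measured carriers Slc35b to Slc35f had a median log2 fold change of 0.003, the 6 organic anion transporters of the Slco family 0.025, the 4 calcium pumps -0.13, the 19 channels 0.025, the 18 chaperones and regulators of carriers 0.0 and the 17 genes of amino acid sensing at the lysosome -0.012. At an unadjusted p under 0.05, where 4.87% of all genes were higher and 6.58% lower, 2 channels were higher and 2 lower, 2 Slc35b to Slc35f carriers were higher, 1 ABC transporter was higher and 3 were lower, and no other of these lists had more than 1 gene in either direction. Basigin (Bsg), the chaperone of lactate carriers, had 201770, 208200 and 198190 counts without and 185420, 192500 and 135960 with outer segments, a difference of -0.26 ± 0.18 (adjusted p = 0.6 in limma). In the lysosomal sensing list, Rheb, the small GTPase that activates the kinase mTOR, was lower in all 3 challenged libraries by -0.24 ± 0.07 (adjusted p = 0.326 in limma) and Mtor was higher in all 3 by 0.17 ± 0.06 (adjusted p = 0.388 in limma).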

How the data were processed

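Poly(A) RNA of the 6 libraries was sequenced on 2 lanes each, per the labels' protocols. GSNAP, DESeq2 and the build mm10 stand in the submitters' processing notes. Versions, annotation, counting tool and strand use: not given in the sources used here. Each deposited library value is a signal, a read count that the authors divided by the size factor of its library (100% of values are whole multiples of 1 step, within 0.001). Size factors were 0.9014 to 1.1025. Read numbers given here are inferred from those steps, the smallest gap between values of a library; in 4 of 6 libraries the lowest value is 2 or 3 steps, so 1 read as the step is not shown there by a value of 1, and no count model was run. Further columns of the deposited table hold log2 fold changes, a score (the Wald statistic) and p-values of the authors, per the file headers. The least abundant gene has 87 reads summed over libraries, and genes below that are not analysed here.

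All 12556 genes were tested on log2(value + 1) with limma's trend (version 3.58.1, R 4.3.3), comparing the groups with no covariate and with p-values adjusted over all genes by Benjamini-Hochberg at 0.05. A minimum mean of 10 removed no gene. Residual degrees of freedom were 4 and the prior added 3.22. The script was tested on simulated data. Gene intervals and gene types came from RefSeq, and strands and exon lengths from GENCODE, on GRCm38.p6, the build that mm10 denotes. All 157 members were matched in GENCODE, 24 of them sharing over 5% of exon bases with another gene. Promoter sequences came from RefSeq on GRCm38.p6, with a promoter entry for 121 members.

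Members and gene lists were chosen with earlier results of these data known. Named members are those called in limma or by the authors, up to 12 in each direction with the smallest p and no overlap, the most abundant 2 of each substrate group, the 4 with the widest range within a group, and carriers known from the RPE or retina, not all of which are printed. For other lists they are the genes called and the most abundant 2. Slc1a6, Slc8a1, Slc8a3, Slc29a4, Slc38a7, Slc39a1, Rheb and Mtor were chosen after their values were seen. Alternatives were quantile normalization, other minimum means and pseudocounts, a block for the replicate number, leaving out each library, leaving out unchallenged replicates 1 and 3, and the authors' deposited table. Some genes that this rule names are not reported here.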

Additional observations from a re-analysis of the deposited data

How the results depend on the processing

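Counts of members called depended on the processing. Against 0 members higher and 0 lower in limma at an adjusted p under 0.05, the authors' deposited table calls 1 higher and 4 lower, and leaving out 1 library gave 0 to 2 lower, with 2 (Slc2a6 and Slc15a3) without unchallenged replicate 2, when 108 of all genes were called lower. At an unadjusted p under 0.05, the 7 members higher (612 of all genes) became 3 (429) with a replicate block, 3 to 11 with 1 library left out (4 of 468 without unchallenged replicate 1, 3 of 378 without POS-challenged replicate 1 and 11 of 737 without POS-challenged replicate 3) and 1 (231) without unchallenged replicates 1 and 3. The 8 members lower (826 of all genes) became 2 (172) without unchallenged replicates 1 and 3, which leaves 1 unchallenged library that is assumed to vary like the others. The cause was not tested. Same-numbered libraries deviated with correlations of -0.351, 0.172 and 0.173, and differently numbered ones with -0.369 to 0.392. These are deviations from means of 3 libraries and are tied to each other, so they cannot decide whether the numbers pair the samples. The median log2 fold change of the members moved by less than the spread between libraries under each alternative run. Of 420 values of 30 named members, 412 kept their direction and side of the threshold, 7 passed it and 1 reversed: Slc7a2, 0.116 without unchallenged replicates 1 and 3. This tally was largely fixed by the choice of members. Groups did not overlap in 28 of the 30, so leaving out libraries could not reverse these. None of the 30 passed the threshold in limma with all 6 libraries, so keeping its side means staying uncalled. Count models on whole reads were not run. Differences under about the spread between 3 libraries cannot be seen at this size.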
